A study of Mus musculus with 33 samples.

Results

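The exons described here are the 600 cassette events, in 565 genes, whose exon was mostly present in the RNA of wild-type mouse cardiac myocytes. They were chosen by a measured value. An event was selected on a mean long-isoform share above 90% over the 9 wild-type (WT) libraries of a targeted splicing assay, a mean of at least 20 counts over all 18 libraries, and a mean of at least 1 count for each isoform. The table held 3885 events, of which 2032 passed the count minimums and were tested and 1961 of those were cassette events. Events are named by the gene and the event number in the table, and the share is the long-isoform count as a percentage of the long and short counts together.

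A cassette exon is an exon that can be kept in the mature transcript or skipped as a unit. The long isoform contains it and the short isoform joins the exons on either side. Rbfox2 is an RNA-binding protein of the Rbfox family, which binds GCAUG elements. In many tissues Rbfox proteins bound downstream of an exon promote its inclusion, and those bound upstream or within it promote skipping. In heart and skeletal muscle, Rbfox targets include genes of the cytoskeleton, the sarcomere and calcium handling. An exon that is kept in nearly all WT transcripts can report mainly a loss of inclusion, since its share has little room to rise.

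Splicing was measured by RASL-seq, in which oligonucleotide pairs anneal across chosen exon junctions, are ligated on the RNA and are counted by sequencing. RNA came from cardiac myocytes of Black Swiss mice that were WT or Rbfox2 knockout (KO), at 5, 9 and 18 weeks of age, with 3 libraries in each of the 6 groups. RNA 3'-end sequencing of myocytes from WT and KO hearts at 9 weeks gave gene levels in 3 libraries per genotype. The labels list 1 sample per group and do not say whether the 3 libraries came from separate animals, so the p-values measure the spread between these libraries, which may be technical. The labels also do not say how or in which cells Rbfox2 was deleted.

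RASL-seq totals ran from 1998027 to 12876511 counts per library. The targeted gene was checked first. Counts of the most abundant Rbfox2 event (7670) were 201.7 to 342.9 CPM (counts scaled to a library total of 1000000) in the 9 WT libraries and 18.0 to 93.2 in the 9 KO libraries, with no overlap. Event 8783 of the same gene was at 66.9 to 119 CPM in WT and 7.0 to 41.9 in KO. Event 8797, with a mean of 22.1 counts per library, was not reduced. It was at 2.87 to 6.69 CPM in WT and 1.50 to 7.03 in KO. Whether the oligonucleotides of these events lie in the deleted stretch is not stated. Markers were measured only in the week 9 3'-end libraries, where the summed level of 10 cardiac myocyte markers was 992717 to 1098970 RP10M (reads scaled to a library total of 10000000) in WT and 1090010 to 1139560 in KO. None of the myocyte markers rose and 2 fell. Of 5 atrial myocyte markers 4 rose, with a summed level of 754.9 to 2350.5 in WT and 17951 to 33854 in KO. Of the other lists, 1 of 7 fibroblast markers tested rose, 1 of 7 smooth muscle and pericyte markers fell, none of 7 endothelial, 6 macrophage and 3 erythroid markers passed the test, and the 4 lymphocyte markers were too low to test, with Ms4a1 at 0 in every library. The summed macrophage level did not overlap between genotypes, with 261.8 to 844.7 in WT and 955.7 to 1274.1 in KO. Nor did the smooth muscle and pericyte sum, with 3294.9 to 4203.3 in WT and 1870.1 to 3056.8 in KO. The fibroblast, endothelial and erythroid sums overlapped. The part of these marker differences in the splicing results was not tested.

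The members covered a wide range of depth, from a mean of 21.3 to 154790 counts per library, with a median of 775.1, and 574 had a mean of at least 50 counts. Their median WT share was 98.0%, and 473 of the 600 had a WT share above 95%. Next to the threshold, the 5 members just inside were Bptf 9239, St6galnac6 7295, Btrc 8918, Ip6k1 9177 and AK015214 4528, with WT means between 90.0045% and 90.11%. The 5 cassette events just outside were Rcor3 3775 and 8063, which share their counts, Rps6kb2 8251, Smarca2 8385 and Matr3 9032, with WT means between 89.8% and 89.9%. A further 302 cassette events had a mean of at least 20 counts and a WT share above 90% but fewer than 1 short-isoform count per library, and were not members. Conversely, 21 members had a WT short-isoform mean under 1 count. They passed the minimum through KO libraries and had to differ, and 6 of them were called lower in KO. Without these 21 members, 31, 53 and 48 were lower at weeks 5, 9 and 18 (34, 56 and 50 with them), and 29 rather than 30 at all 3 ages. In the other direction, 18 members had a KO short-isoform mean under 1 count. They passed the minimum through WT libraries, and 1 of them was called higher in KO. The member Dkk-3 4859 had 2 libraries without counts (KO week 5 library 3 and WT week 9 library 3), and its mean shares used the remaining libraries. Counts of 19 members came from a column also used by another tested event, so such events are not independent.

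Most of these exons stayed in the transcript in KO myocytes, and a small set lost much or nearly all of its inclusion. The change in mean share was under 1 percentage point for 375, 354 and 345 members at weeks 5, 9 and 18. Over the 600 members the median change was 0.0104 points at week 5, -0.0118 points at week 9 and 0.00682 points at week 18. Over all 2032 events tested it was 0.0596, 0.0523 and 0.223 points. The mean share over WT fixed the members, so these medians are a description.

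The long-to-short ratio was compared between KO and WT at each age with edgeR's quasi-likelihood test, in 1 fit of all 18 libraries, with Benjamini-Hochberg adjustment over the 2032 events. At week 5 the ratio was lower in KO for 34 members and higher for 13. The background over all events tested was 6.1% lower and 3.99% higher. At week 9, 56 members were lower and 29 higher, beside 8.91% and 7.97% of all events. At week 18, 50 members were lower and 35 higher, beside 8.61% and 10.8% of all events. As shares of the 600 members these are 5.67%, 9.33% and 8.33% lower, close to the background, and 2.17%, 4.83% and 5.83% higher, each below it. Leaving out KO week 9 library 2 took the week 9 rises from 29 to 12, and leaving out WT week 9 library 3 took them to 18. Leaving out KO week 5 library 2 took the week 5 rises from 13 to 8. With TMM factors computed per isoform column, a scaling added after the data were seen, week 18 had 54 lower and 22 higher. The WT libraries of an age entered both the choice and the test. With members chosen by the WT libraries of the other 2 ages, 35, 54 and 47 were lower and 13, 30 and 38 higher at weeks 5, 9 and 18.

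The 3 ages share no libraries in their contrasts, though they share 1 estimate of the spread. At any age, 72 members (12%) were lower and 55 (9.17%) higher, beside 11.6% and 14.3% of all events. None was lower at one age and higher at another, and 473 passed at no age. The KO and WT libraries of the age did not overlap for 34 of 34 members lower at week 5, 53 of 56 at week 9 and 47 of 50 at week 18. The same held for 98.4%, 97.8% and 97.7% of all events called lower, so nothing particular to the members is read from it.

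**Figure D1:**
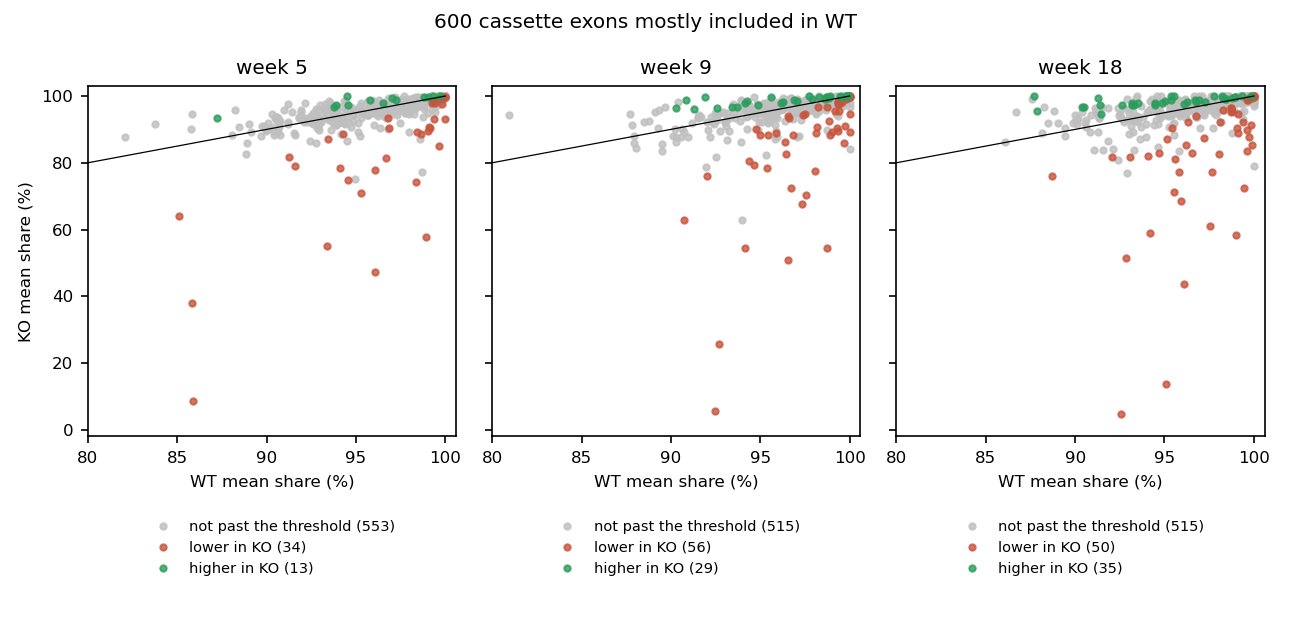
Mean long-isoform share in KO (y axis, percent) against WT (x axis, percent) for the 600 members at each age, each point the mean of 3 libraries per genotype and the line marking equal shares. Red points were lower in KO and green points higher at an adjusted p under 0.05, and the lowest red points at weeks 9 and 18 are Kif21a at 5.52% and 4.71%.

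The falls were of very different size. At week 5, 1 of the 34 fell by 50 points or more, 7 by 20 to 50 points, 7 by 10 to 20, 10 by 5 to 10, 4 by 1 to 5 and 5 by under 1 point. At week 9 the same classes held 2, 8, 9, 12, 14 and 11 of the 56 members. At week 18 they held 3, 8, 14, 8, 8 and 9 of the 50. Falls of at least 10 points, called or not, numbered 18, 24 and 29 at the 3 ages. The largest that did not pass was in Mtap2 4501, a microtubule-associated protein read by 5 to 59 counts per library, at week 9, with 91.7%, 90.3% and 100% in WT and 94.7%, 48.00% and 45.5% in KO (adjusted p = 0.13). Counting only those that passed left 15, 19 and 25 members at weeks 5, 9 and 18, beside 4.08%, 5.22% and 5.86% of all events. These are 2.5%, 3.17% and 4.17% of the members. A rise of at least 10 points was possible only for the members with the lowest WT shares. It was seen in 0, 0 and 1 member, beside 1.97%, 4.23% and 6.35% of all events.

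A set of 30 members (5%), each in a different gene, was lower in KO at all 3 ages, beside 4.82% of all events tested. They made up 30 of the 34 lower at week 5, 30 of the 56 at week 9 and 30 of the 50 at week 18. Without the members that passed the count minimum through KO libraries and had to differ, the set numbered 29. In 29 of the 30 the genotypes did not overlap at any age, the exception being Slc24a2 7838 at week 18, as in 96 of the 98 events of the whole table that were lower at all ages. Their median change was -9.83 points at week 5, -10.7 at week 9 and -11.1 at week 18. A further 8 members were lower at weeks 9 and 18, and 4, 18 and 12 at week 5, 9 or 18 alone. The members higher in KO at all 3 ages numbered 6 (1%), beside 2.51% of all events. Their genes included Sorbs2, Tmem188, Tecr, Limch1 and Tmem63b.

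**Figure D2:**
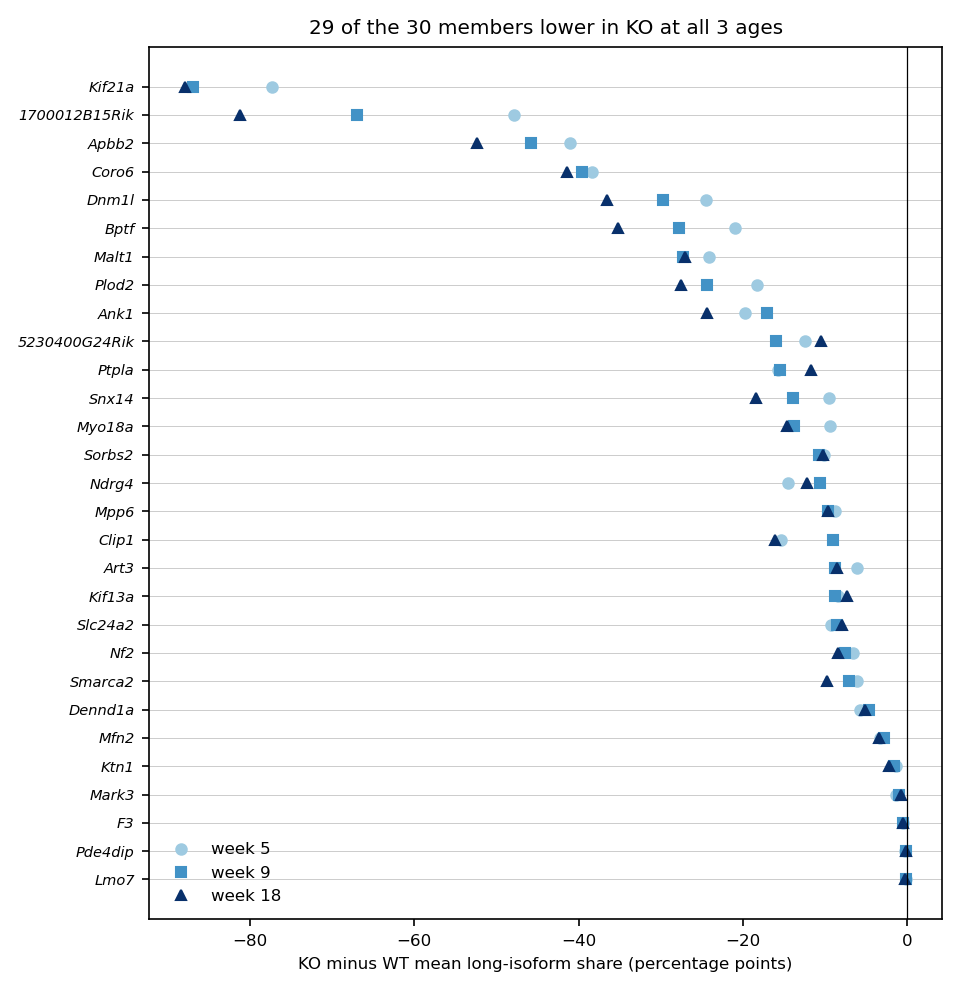
Change in mean long-isoform share, KO minus WT in percentage points (x axis), at weeks 5, 9 and 18 for 29 of the 30 members lower in KO at all 3 ages, ordered by the week 9 change. Kif21a and 1700012B15Rik lie farthest from 0, and 13 of those drawn fell further at each later age.

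Among genes of the microtubule network, Kif21a, a kinesin motor of the kinesin-4 family that moves along microtubules, showed the largest fall of the 600 members at every age. At week 9 the Kif21a 8747 share was 89.6%, 91.96% and 95.8% in WT and 8.31%, 4.49% and 3.77% in KO. At week 5 it was 84.2%, 84.8% and 88.7% in WT and 5.7%, 6.67% and 13.1% in KO. At week 18 it was 93.3%, 90.2% and 94.2% in WT and 4.28%, 4.77% and 5.07% in KO. Each WT library held the exon in most of its counts and each KO library in few, with no overlap. The log2 ratio changed by -6.08 ± 0.41 (SE, n = 3 libraries a group), -7.92 ± 0.42 and -8.01 ± 0.43, with adjusted p = 6.3e-10, 9.4e-12 and 1.1e-11. The WT mean of Kif21a over the ages was 90.3%, just inside the threshold, which was met through the week 9 and 18 libraries.

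The counts behind the Kif21a share did not add up to a constant. At week 9 the short isoform went from 7.9 ± 2.84 CPM (SD, n = 3) in WT to 433 ± 62.6 in KO, while the long isoform went from 98.8 ± 11.02 to 24.4 ± 7.59. The gain of the short isoform was larger than the loss of the long one. The 2 isoforms are read by different oligonucleotide pairs, so a share need not equal the molar fraction of transcripts, and only its change between groups was compared.

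Other members of the microtubule list moved less. Kif13a 8255, a kinesin of the kinesin-3 family that carries endosomal cargo, had 99.3%, 99.3% and 99.3% in WT and 91.99%, 90.03% and 89.4% in KO at week 9, and changed by -8.47 points at week 5, -8.83 at week 9 and -7.29 at week 18 (adjusted p = 1.8e-09, 3.1e-10 and 3.7e-10). Clip1 4104, a protein of growing microtubule ends, had 99.6%, 99.6% and 99.7% in WT and 77.9%, 84.8% and 87.98% in KO at week 18. Its change was -15.3 points at week 5, -9.05 at week 9 and -16.1 at week 18 (adjusted p = 0.00029, 0.00047 and 5.3e-07). Mark3 8160, a kinase of microtubule-associated proteins, changed by -1.4, -0.961 and -0.812 points and was lower at all ages. In all, 4 of the 14 members on this list fell at each age and none rose, beside 6.1%, 8.91% and 8.61% of all events lower. The gene lists were chosen with earlier results known and hold few members, so nothing particular to a list is read from its share. The median of this list was -0.209, -0.0668 and -0.00643 points.

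The second largest fall at weeks 9 and 18 was in 1700012B15Rik 8621, a name with no assigned function. At week 5 its share was 91.3%, 81.4% and 84.7% in WT and 30.5%, 32.2% and 51.04% in KO. At week 18 it was 96.5%, 93.8% and 94.9% in WT and 21.3%, 12.2% and 8.06% in KO. Its change was -47.9 points at week 5, -66.9 at week 9 and -81.2 at week 18, with a log2 ratio change of -3.35 ± 0.49, -5.30 ± 0.52 and -6.91 ± 0.58 (adjusted p = 4.4e-05, 8.4e-08 and 8.2e-09). The groups did not overlap at any age and the mean gap was larger at each later age.

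Dnm1l, the dynamin-related GTPase that divides mitochondria, had for event 4328 at week 18 shares of 97.9%, 97.96% and 96.8% in WT and 64.3%, 60.1% and 58.5% in KO. The week 9 shares were 96.8%, 97.6% and 97.6% in WT and 77.6%, 65.1% and 60.2% in KO, and at week 5 96.9%, 94.5% and 94.5% in WT and 65.3%, 67.8% and 79.3% in KO. Every KO library lay below every WT library, with changes of -24.5 points at week 5, -29.7 at week 9 and -36.6 at week 18 (adjusted p = 6.8e-07, 8.5e-09 and 1.2e-09). The gene listed as 5230400G24Rik, an older name of Mff in the RefSeq gene table, encodes the receptor that recruits Dnm1l to mitochondria. Event 4473 of 5230400G24Rik had 93.5%, 92.3% and 90.4% in WT and 81.4%, 74.3% and 72.4% in KO at week 9, and changed by -12.5 points at week 5, -16.03 at week 9 and -10.5 at week 18 (adjusted p = 0.00086, 7.8e-05 and 0.00242). Mfn2, a GTPase that fuses mitochondria, had 2 members that share a count column. Mfn2 7748 changed by -3.33 points at week 5, -2.84 at week 9 and -3.42 at week 18, and Mfn2 8973 changed by -1.02 points at week 9 and -0.943 at week 18, with adjusted p = 0.0629 at week 5. The week 5 call of Mfn2 7748 was lost without KO week 5 library 3 (adjusted p = 0.108) or WT week 5 library 1 (0.143), and the week 9 call without any of 3 libraries of that age, WT 1 (0.055), KO 2 (0.0559) and KO 3 (0.065). On the list of mitochondrial and metabolic genes, which did not hold the name 5230400G24Rik, 2 of 5 members fell at week 5 and 3 at each later age, all of them in Dnm1l and Mfn2, and none rose. The 2 Mfn2 members are not independent. Over all events, 6.1%, 8.91% and 8.61% were lower and 3.99%, 7.97% and 10.8% higher at weeks 5, 9 and 18.

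Sorbs2 encodes an SH3-domain adaptor of Z discs. Its event 4678 went from 98.7%, 99.1% and 98.8% to 90.1%, 87.95% and 86.6% at week 9, a change of -10.1 points at week 5, -10.7 at week 9 and -10.3 at week 18 (adjusted p = 1.8e-09, 3.8e-10 and 1.6e-10).

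Coro6, a coronin that binds actin filaments, had for event 7992 shares of 92.9%, 93.2% and 94.1% in WT and 55.8%, 56.3% and 53.02% in KO at week 5. At week 9 the Coro6 shares were 95.5%, 93.4% and 93.5% in WT and 68.7%, 48.4% and 46.4% in KO, with KO library 1 above the other two, and at week 18 93.96%, 91.1% and 93.4% in WT and 49.8%, 53.02% and 51.5% in KO. The genotypes did not overlap, and the changes were -38.3 points at week 5, -39.6 at week 9 and -41.4 at week 18 (adjusted p = 2e-08, 5.2e-09 and 5.1e-09). Ank1 encodes an ankyrin, which ties membrane proteins to the spectrin cytoskeleton. Ank1 4371 fell from 95.5% ± 0.134 (SD, n = 3) to 71.1% ± 2.56 at week 18, and changed by -19.7 and -17.1 points at weeks 5 and 9 (adjusted p = 3.9e-07, 2.9e-07 and 1.1e-08 at the 3 ages). Myo18a 3852, an unconventional myosin, had 99.4%, 99.6% and 100% in WT and 88.8%, 85.6% and 83.02% in KO at week 9 and changed by -9.4 points at week 5, -13.8 at week 9 and -14.7 at week 18 (adjusted p = 9.6e-06, 4.6e-08 and 2.7e-08). Of the 23 members on the actin list, which did not hold Coro6, 5, 6 and 6 fell and 3, 3 and 4 rose at weeks 5, 9 and 18, with a list median of 0.00502, -0.0178 and -0.0295 points. The shares of all events at these ages were 6.1%, 8.91% and 8.61% lower and 3.99%, 7.97% and 10.8% higher.

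**Figure D3:**
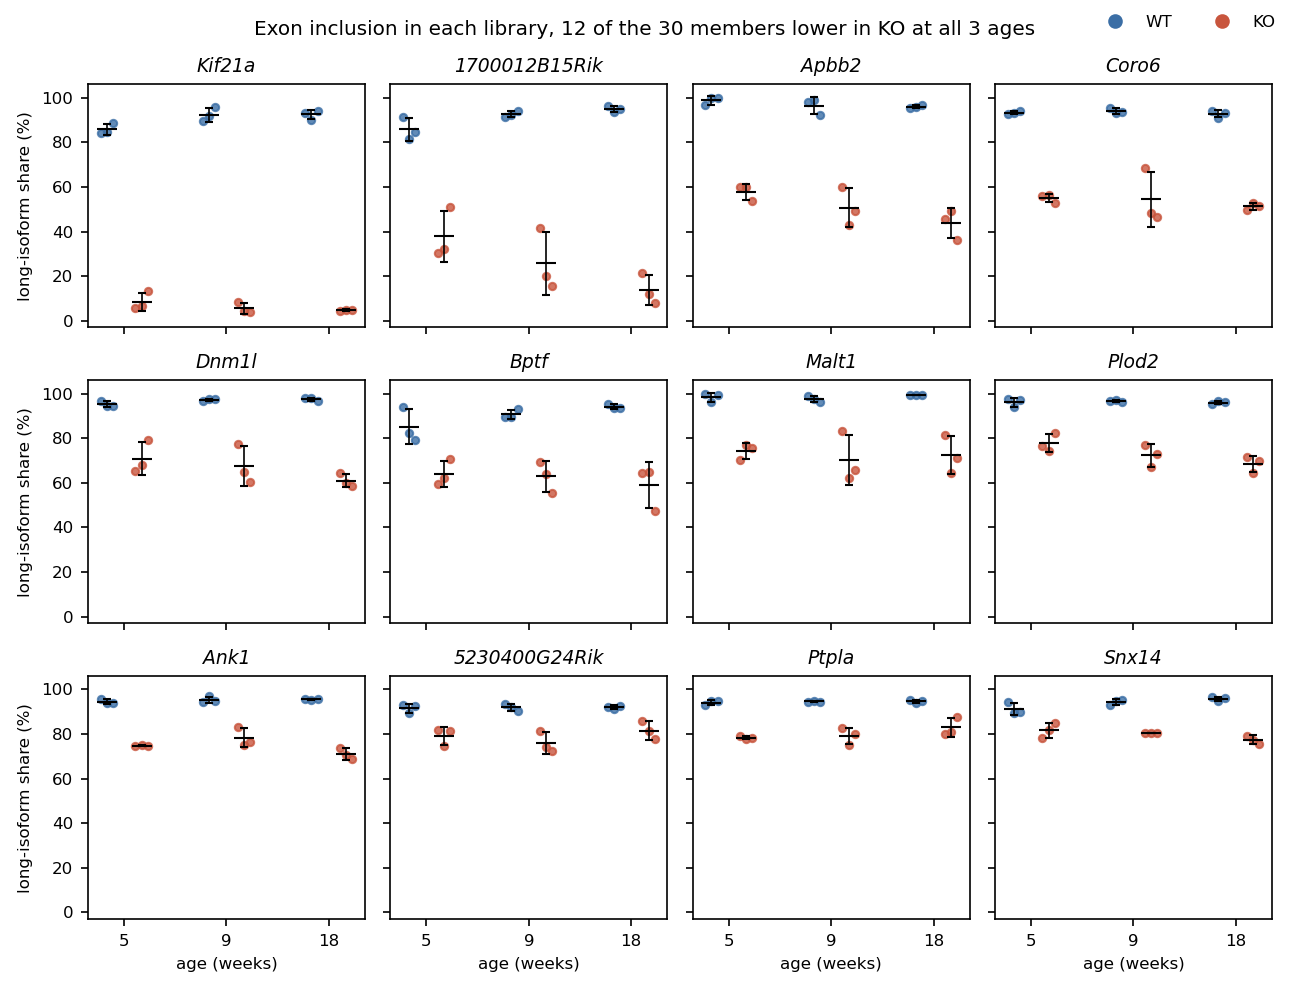
Long-isoform share (y axis, percent) in each RASL-seq library by age (x axis, weeks) for 12 of the 30 members lower in KO at all 3 ages, ordered by the week 9 change. Points are libraries, black bars the mean ± SD of 3 libraries, and no KO library of the age reaches a WT library in any of these panels.

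Apbb2, an adaptor that binds the cytoplasmic tail of the amyloid precursor protein, had for event 4964 at week 9 shares of 98.3%, 98.98% and 92.3% in WT and 60.00%, 42.8% and 49.4% in KO. At week 18 these were 95.6%, 95.8% and 96.8% in WT and 45.5%, 49.5% and 36.4% in KO, on 27 to 811 counts per library over the series. Apbb2 changed by -41.01 points at week 5, -45.8 at week 9 and -52.3 at week 18 (adjusted p = 7.1e-06, 1.8e-06 and 7.2e-07). Malt1 4083, a protease of the NF-kB pathway, had 99.5%, 99.3% and 99.6% in WT and 81.4%, 64.3% and 71.3% in KO at week 18 and changed by -24.1 points at week 5, -27.3 at week 9 and -27.1 at week 18 (adjusted p = 1.2e-05, 2.5e-05 and 4.3e-06). Plod2 4047, a lysyl hydroxylase that modifies collagen, had 95.2%, 96.5% and 96.1% in WT and 71.4%, 64.3% and 69.6% in KO at week 18. It changed by -18.3 points at week 5, -24.4 at week 9 and -27.5 at week 18 (adjusted p = 9e-07, 3.5e-08 and 2.7e-08). In each of these genes the KO libraries lay below all WT libraries of the age.

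App 4548, the amyloid precursor protein itself, had 88.4%, 88.7% and 89.00% in WT and 81.4%, 70.7% and 76.4% in KO at week 18. It changed by -13.8 points at week 9 and -12.5 at week 18 (adjusted p = 4.1e-05 and 0.0139), with adjusted p = 0.468 at week 5. Uap1 4526, an enzyme that makes the sugar donor UDP-N-acetylglucosamine, rested on fewer counts, 10 to 187 per library. Its share was 97.6%, 96.6% and 100% in WT and 90.7%, 71.7% and 70.00% in KO at week 9, where it changed by -20.6 points (adjusted p = 0.00716). The Uap1 call at week 9 was lost without KO week 9 library 2 (adjusted p = 0.0935) or WT week 9 library 3 (adjusted p = 0.0685). At week 18 Uap1 changed by -20.4 points (adjusted p = 0.012), a call lost without WT week 18 library 1 (adjusted p = 0.0631), and at week 5 adjusted p was 0.434.

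Bptf, the bromodomain subunit of the NURF remodelling complex, had for event 9239 shares of 89.5%, 89.5% and 93.1% in WT and 69.3%, 64.1% and 55.5% in KO at week 9, and 95.4%, 93.8% and 93.4% in WT and 64.6%, 65.1% and 47.2% in KO at week 18. Bptf changed by -20.99 points at week 5, -27.8 at week 9 and -35.2 at week 18 (adjusted p = 0.00715, 0.00017 and 6.1e-06). Its WT mean lay at the threshold itself, and at week 5 its WT libraries spread from 79.1% to 93.9%. The week 5 call was lost when only the week 5 libraries were fitted (adjusted p = 0.0592). Smarca2 8330, an ATPase of the SWI/SNF complex, changed by -6.16 points at week 5, -7.12 at week 9 and -9.79 at week 18 (adjusted p = 0.0392, 0.00364 and 0.00011). The week 5 call of Smarca2 was lost without any 1 of 5 of the 6 week 5 libraries, with adjusted p between 0.0698 and 0.19, and under TMM factors per isoform column (adjusted p = 0.109). L3mbtl3 3933, a protein with malignant-brain-tumour repeats, changed by -6.67 points at week 9 and -11.5 at week 18 (adjusted p = 0.0339 and 0.0385). The L3mbtl3 calls did not survive most single-library omissions, reaching an adjusted p of 0.261 without WT week 9 library 3 and 0.175 without KO week 18 library 3. Of the 19 members on this list, 2, 3 and 3 fell and 0, 0 and 2 rose at the 3 ages (the rises in Ncor1 and Mef2c), beside 6.1%, 8.91% and 8.61% of all events lower and 3.99%, 7.97% and 10.8% higher, with a median of 0.328, 0.0489 and 0.11 points.

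In membrane traffic, Snx14 4427, a sorting nexin, had 96.5%, 94.8% and 96.1% in WT and 79.3%, 77.4% and 75.3% in KO at week 18 and changed by -9.53 points at week 5, -13.9 at week 9 and -18.4 at week 18 (adjusted p = 0.00204, 4e-06 and 5.4e-08). With Dnm1l and Kif13a it made up the 3 of 15 members on this list that fell, the same number at each age, and none rose, beside 6.1%, 8.91% and 8.61% of all events lower. The list median was -0.347, -0.173 and 0.111 points.

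Smaller groups held few changes. The background over all events was 6.1%, 8.91% and 8.61% lower and 3.99%, 7.97% and 10.8% higher at weeks 5, 9 and 18. Of 7 members in calcium handling and ion channel genes, 1 fell, at week 18. This was Cacna1c 8805, in the pore subunit of the L-type calcium channel, from 99.8%, 99.6% and 99.8% in WT to 99.5%, 99.2% and 99.4% in KO, a change of -0.372 points (adjusted p = 0.0194) that was lost without KO week 18 library 2 (adjusted p = 0.106), WT library 1 (0.139) or WT library 3 (0.0694). The list median was -0.538, -0.296 and -0.494 points. Titin, the giant elastic protein of the sarcomere, supplied both changes among 4 sarcomere members. Ttn 4680 went from 99.98% ± 0.0219 to 99.9% ± 0.0808 at week 9 (SD, n = 3, adjusted p = 0.00106), and Ttn 3819 from 97.3% ± 0.0923 to 98.3% ± 0.139 at week 18 (adjusted p = 0.00471). The second was lost under TMM factors per isoform column (adjusted p = 0.164). The sarcomere median was -0.0672, 0.239 and 0.515 points.

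Of 15 members in kinase and small GTPase genes, none passed at weeks 5 and 9. At week 18, 2 fell and 2 rose, beside 8.61% and 10.8% of all events. The named ones were Lrrfip1 3918 (adjusted p = 0.0431), Pip5k1c 4033, a lipid kinase (adjusted p = 0.0429), and Ppfibp1 7820, a liprin (adjusted p = 0.0459). Lrrfip1 changed by -4.6 points and Ppfibp1 by -15.4, both lower in KO, and Pip5k1c rose by 3.15. Each was lost in 5 of the 6 omissions of a week 18 library, with adjusted p up to 0.215, 0.178 and 0.181 for Lrrfip1, Pip5k1c and Ppfibp1. The list median was 0.0398, 0.0238 and -0.326 points. None of the 5 members in adhesion and matrix genes passed at any age, with a median of 0.283, 0.672 and 0.521 points. The list did not hold Plod2.

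RNA-binding proteins had 18 members, of which 1, 0 and 2 fell and 0, 0 and 1 rose at weeks 5, 9 and 18, with a median of -0.0654, 0.0255 and 0.0651 points. The shares of all events were 6.1%, 8.91% and 8.61% lower and 3.99%, 7.97% and 10.8% higher. Rbm26 3833 changed by -6.05 points at week 18 (adjusted p = 0.00479), from 98.7%, 98.3% and 97.4% to 94.8%, 90.7% and 90.7%. Pcbp2 8638, a poly(C)-binding protein, rose by 4.22 points at week 18 (adjusted p = 0.0171), which was lost without WT week 18 library 1 (adjusted p = 0.0863), KO week 18 library 2 (0.0905) or KO week 18 library 3 (0.0761). A2bp1, the older name of Rbfox1, a paralogue of Rbfox2, had 1 member, event 4130. A2bp1 4130 was 98.6%, 97.3% and 98.8% in WT and 95.02%, 96.6% and 96.2% in KO at week 18, a change of -2.32 points (adjusted p = 0.0239), with adjusted p = 0.68 and 0.387 at the earlier ages. The week 18 call was lost without KO week 18 library 1 (adjusted p = 0.218), WT library 1 (0.0863) or WT library 3 (0.0914). Rbfox2 7670, itself a member with a WT mean of 99.6%, did not pass at any age (adjusted p = 0.418, 0.725 and 0.999), and its KO shares rest on few counts.

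Members outside all the lists, 477 of the 600, held 19, 38 and 28 of the falls and 10, 26 and 25 of the rises at the 3 ages. Of all events, 6.1%, 8.91% and 8.61% were lower and 3.99%, 7.97% and 10.8% higher. The median change of the 477 members was 0.0307, -0.0114 and 0.011 points. The remaining members of the 30 lower at all ages follow. Ptpla 8962, a dehydratase of very-long-chain fatty acid synthesis, changed by -15.8 points at week 5, -15.5 at week 9 and -11.8 at week 18, with 94.5%, 95.05% and 94.3% in WT and 82.5%, 75.2% and 79.8% in KO at week 9. Ndrg4 4156 changed by -14.6 points at week 5, -10.6 at week 9 and -12.2 at week 18, from shares of 100%, 100% and 100% to 90.9%, 88.9% and 88.3% at week 9. The week 9 WT libraries of Ndrg4 held no short-isoform counts, so its share there could not rise. Nf2 4361, the gene of the tumour suppressor merlin, changed by -6.57 points at week 5, -7.55 at week 9 and -8.5 at week 18. Slc24a2 7838, a sodium, calcium and potassium exchanger, changed by -9.29 points at week 5, -8.51 at week 9 and -7.93 at week 18. Mpp6, Art3 and Dennd1a fell by 4.65 to 9.7 points at each age, Ktn1 by 1.38 to 2.3, and F3, Pde4dip and Lmo7 by 0.174 to 0.582. These last 3 were past the threshold at all 3 ages with WT shares of 99.8%, 99.98% and 99.8%, on means of 5081, 13469 and 28907 counts.

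Rises had little room, with a WT share already above 90%. Baz2b 9256, a bromodomain protein, had 90%, 92.2% and 90.4% in WT and 97.2%, 99.4% and 99.8% in KO at week 9, and 92.2%, 90.5% and 91.1% in WT and 98.8%, 99.6% and 100% in KO at week 18. The Baz2b share rose by 7.96 and 8.2 points (adjusted p = 0.00064 and 0.00022), with adjusted p = 0.175 at week 5. Tmem188 3868 rose by 3.00, 4.9 and 7.49 points (adjusted p = 0.0454, 0.00364 and 0.00053). The week 5 call of Tmem188 was lost without any 1 of 5 of the 6 libraries of that age, with adjusted p up to 0.235. Sfrs14 4939, of an SR-related splicing protein, had 82.7%, 91.5% and 88.9% in WT and 100%, 100% and 100% in KO at week 18 on 30 to 160 counts per library. Its rise of 12.3 points (adjusted p = 0.00233) was the one above 10 points. Pip5k1a 7506, a kinase that makes phosphatidylinositol bisphosphate, rose at week 9 from 90.6%, 96.1% and 89.1% to 100%, 99.3% and 100% (adjusted p = 0.00191) and had adjusted p = 0.108 and 0.414 at weeks 5 and 18. Ocrl 8406, a phosphatase of the same lipid, rose by 6.38 points at week 18 (adjusted p = 0.0209), which was lost without WT week 18 library 3 (adjusted p = 0.0641) or KO week 18 library 1 (0.13).

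Some genes carried events that moved in opposite directions. Of the 565 genes, 533 had 1 member, 29 had 2 and 3 had 3. In Sorbs2, event 4678 fell while event 4833 rose by 2.63, 3.14 and 3.43 points (adjusted p = 0.0368, 0.0233 and 0.0002). Sorbs2 4833 shares a count column with Sorbs2 8229, which did not pass (adjusted p = 0.854, 0.926 and 0.998). The rises of Sorbs2 4833 were lost without any 1 of 3 week 5 libraries (adjusted p up to 0.185) and of 4 week 9 libraries (up to 0.124). In Zc3h14, a protein that binds poly(A), none of events 4004, 4955 and 7836 passed at any age, the smallest adjusted p being 0.0518 for event 4955 at week 18.

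Some events whose exon was mostly skipped in WT, which are not members, showed the reverse change. At week 9 they included events of 4 genes. In Sorbs2, event 4048 rose from 5.51% ± 0.324 (SD, n = 3) to 65.5% ± 9.86 at week 9 (adjusted p = 9.4e-12). In Dnm1l, event 3927 rose from 10.4% ± 1.79 to 61.9% ± 3.67 (adjusted p = 7.1e-10). In Clip1, event 5004 rose from 7.5% ± 4.96 to 62.98% ± 9.42 (adjusted p = 2e-06). In Kif21a, event 3736 rose from 1.6% ± 0.135 to 7.45% ± 1.88 (adjusted p = 6.7e-06). At week 18, Kif13a 4383 also rose, by 13.4 points (adjusted p = 0.00314), and Cacna1c 4864 by 12.7 (adjusted p = 0.0194). Dnm1l 8324, another mostly skipped event, was lower in KO at week 9, by -1.67 points (adjusted p = 0.00934). These events were singled out after their values were seen. The files give no exon coordinates, so whether paired events share an exon or a junction is not known here. Of the 71 genes with a member lower at any age, 25 had a further tested event. Of those 54 further events, 12 were higher in KO at some age and 10 lower, beside 14.3% and 11.6% of all events.

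**Figure D4:**
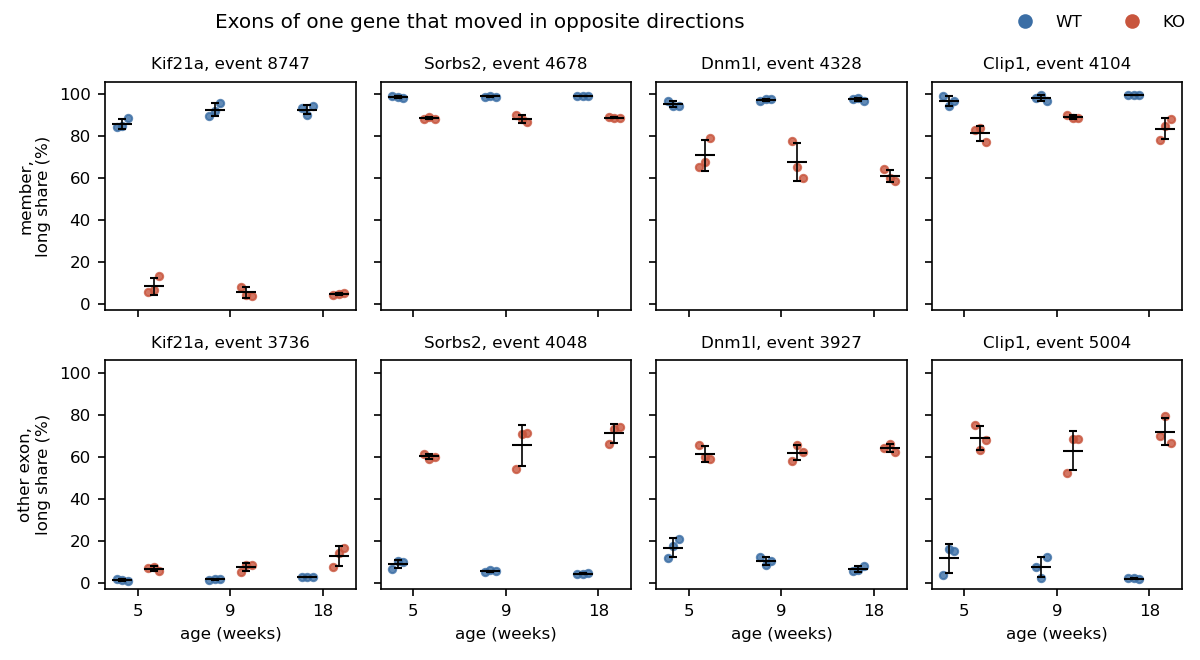
Long-isoform share (y axis, percent) by age (x axis, weeks) for a member (top row) and another event of the same gene (bottom row), with points for libraries and black bars for the mean ± SD of 3 libraries. In each of the 4 genes the top event lies lower in KO than in WT and the bottom event higher.

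Whether the KO effect itself changed with age was tested as the difference between the week 18 and week 5 contrasts. It passed for 2 members (0.333%), beside 0.787% of all events. The fall of 1700012B15Rik 8621 was deeper at week 18, with a difference of -3.57 ± 0.77 in log2 ratio (SE, adjusted p = 0.0321). Smek2 7203, a regulatory subunit of protein phosphatase 4, did not pass at weeks 5 and 9 and was higher in KO at week 18, with 97.9%, 97.99% and 97.4% in WT and 99.9%, 100% and 100% in KO. At week 5 Smek2 had 99.7%, 99.3% and 99.4% in WT and 99.8%, 99.5% and 99.1% in KO, so the WT share was lower at week 18 and the KO share higher (adjusted p = 0.00276 and 0.0363). Its difference was 5.07 ± 0.82 (adjusted p = 0.00348). The count ran from 1 to 11 when single libraries were left out, with 11 without WT week 5 library 1, 4 without KO week 18 library 1 and 1 without each of 7 other libraries. Dnm1l, Apbb2, Bptf and Snx14 had mean falls that were larger at each later age, and their differences did not pass (adjusted p = 0.145, 1.00, 0.235 and 0.0586).

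Within KO myocytes, 5 members (0.833%) had a lower ratio at week 18 than at week 5 and 12 (2%) a higher one. Over all events these shares were 0.689% and 2.85%. Among the 5 were 1700012B15Rik 8621, from 37.9% to 13.9% (adjusted p = 0.0363), App 4548, from 91.9% to 76.2% (adjusted p = 0.00464), and L3mbtl3 3933, from 94.9% to 81.6% (adjusted p = 0.0275). Among the 12 was Ttn 3819, from 96.9% to 98.3% (adjusted p = 0.00595). The 17 became 4 without KO week 18 library 2 and 5 without KO week 5 library 3. In WT over the same interval, 5 members (0.833%) were lower and 22 (3.67%) higher, beside 2.17% and 3.49% of all events. The WT counts entered the choice of members as a mean over the ages.

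The KO libraries differed in how far the exons fell, and in their remaining Rbfox2 counts. For each library, the median distance from the WT mean of its age was taken over the 30 members lower at all ages. At week 9 it was -8.98 points in KO library 1, which had 82.4 CPM of Rbfox2, -11.8 in library 2 with 26.96, and -12.0 in library 3 with 29.9. At week 5 it was -10.7 points in library 1 with 41.3 CPM, -11.3 in library 2 with 44.8 and -9.07 in library 3 with 93.2. At week 18 it was -9.81 points in library 1 with 44.4, -12.8 in library 2 with 19.1 and -11.5 in library 3 with 18.0. At each age the KO library with the most Rbfox2 counts had the smallest median fall. The same libraries held the highest KO share of the 3 for 16, 24 and 17 of the 30 members at weeks 5, 9 and 18. This is a description of 3 libraries an age, and the part of remaining Rbfox2 in the size of the falls was not tested. Without KO week 5 library 3 and KO week 9 library 1, 37, 60 and 52 members were lower and 15, 32 and 38 higher. This setting was added after the data were seen and kept KO week 18 library 1. Left out alone, KO week 5 library 3 gave 32 falls at week 5 (34 with all libraries). KO week 9 library 1 alone gave 56 at week 9 (56 with all), and KO week 18 library 1 alone 50 at week 18 (50 with all).

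**Figure D5:**
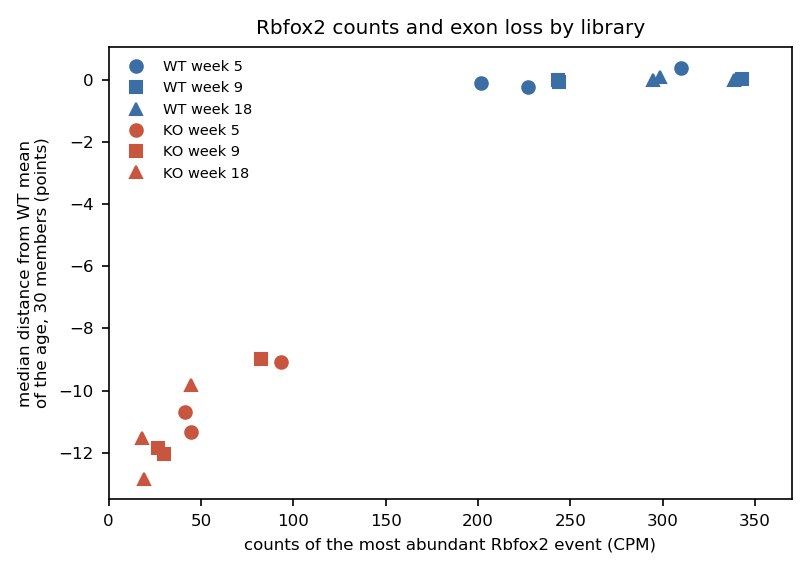
Median distance from the WT mean of the age over the 30 members lower in KO at all 3 ages (y axis, percentage points) against the CPM of the most abundant Rbfox2 event (x axis) in the 18 libraries. WT libraries sit at about 0, and within each age the KO library farthest to the right has the smallest fall.

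Cassette events of other WT levels were counted in the same fit, as a description. Of 936 with a WT share of 10 to 90%, 80, 102 and 105 were lower in KO at weeks 5, 9 and 18 and 35, 80 and 114 higher. Of 425 with a WT share under 10%, 8, 21 and 15 were lower and 27, 46 and 61 higher. Falls of at least 10 points took 7.16%, 9.19% and 9.72% of the middle group, against the 2.5%, 3.17% and 4.17% given for the members. The choice by WT share sets how far an event can move in each direction, so no test was made between the classes.

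The level of the genes was measured independently of the rule by the 3'-end reads at week 9. Of the 565 gene names, 542 matched the table, 494 by the name as written and the rest through older symbols in the RefSeq gene table, and 495 genes had a mean of at least 10 RP10M and were tested. By limma on log2 of the value plus 1, 5 of them rose and 6 fell in KO, 2.22% of the tested genes beside 1.6% of all 10858 genes. Their median log2 change was -0.0257, and that over all genes 0.068. The 5 that rose were 1700012B15Rik, Asap1, Enah, Prune2 and Dnlz, and the 6 that fell Acadm, Erc1, Kitl, Trdn, Rbfox1 and Rbfox2. This count rested on single libraries, falling to 1 without KO library 2 or KO library 3, 3 without WT library 2 and 6 without KO library 1, and rising to 17 without WT library 3.

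Rbfox2 fell from 278 ± 56.6 RP10M (SD, n = 3) in WT to 88.5 ± 26.1 in KO, or -1.66 ± 0.30 in log2 (SE), by limma (adjusted p = 0.0233). Rbfox1 fell from 959 ± 228 to 299 ± 73.9, a log2 change of -1.68 ± 0.24 (adjusted p = 0.0106). Without KO library 2 or 3 adjusted p was 0.134 or 0.15 for Rbfox2 and 0.0735 or 0.0836 for Rbfox1, and without WT library 1 or 2 it was 0.0537 or 0.0986 for Rbfox2.

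Among the genes of the 30 members lower at all ages, 27 were tested and 1 changed. This was 1700012B15Rik, which rose from 49.2 ± 23.7 to 378 ± 50.2, a log2 change of 3.01 ± 0.35 (adjusted p = 0.00301). Its RASL-seq total was 56.6 ± 8.18 CPM in WT and 60.04 ± 7.33 in KO at the same age, so the 3'-end difference was not matched there. Kif21a went from 294 ± 69.98 to 165 ± 53.1 and did not pass (log2 change -0.86 ± 0.31, adjusted p = 0.188). The RASL-seq total of Kif21a 8747 was 106.7 ± 9.19 CPM in WT and 457.3 ± 55.96 in KO at week 9, a rise the 3'-end level did not match. For other genes with large falls, the log2 change was -0.30 ± 0.19 in Apbb2, 0.29 ± 0.19 in Dnm1l, -0.78 ± 0.25 in Bptf, -0.41 ± 0.67 in Plod2, 0.14 ± 0.16 in Ank1 and -0.27 ± 0.41 in Uap1, with adjusted p between 0.139 and 0.806. Malt1 was too low to test, and Coro6 was listed at 0 in all 6 libraries although its RASL-seq event was counted in every library. The median log2 change over the 27 genes was -0.157. The 4 atrial markers rose in the same libraries, and their part in these values was not tested. In such bulk RNA, fewer cells of a type and less RNA per cell cannot be told apart.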

How the data were processed

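RASL-seq counts of the short and long isoform of each event were used as the authors deposited them, not normalized, per the file headers. The 3'-end signal was deposited by the authors as reads per gene scaled to 10000000 per library (RP10M, per the file headers), with 1 WT column that sums to 9529443.7. The submitters' processing notes list cutadapt 1.2.1 and Bowtie 0.12.7, and the counting rules are not given in the sources used here. Of the 33 samples of the series, the 6 RASL-seq and 2 3'-end samples that this comparison needs were analysed, and 0 columns of per-sample values in these tables were unused.

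Events were tested where the mean total reached 20 counts and each isoform had a mean of 1 or more, with edgeR 4.0.16 (R 4.3.3) quasi-likelihood tests of the long-to-short ratio, with a term for each library and Benjamini-Hochberg adjustment over all 2032 events at a threshold of 0.05. All adjusted p-values of splicing come from that fit unless another setting is named. Gene levels used limma 3.58.1 on log2(RP10M + 1) where a gene's mean reached 10 RP10M, so a fold change of a low gene is understated. Whole reads could be recovered from 100% of the low values of every library (tolerance 0.1 read), and totals were 4007538 to 9563471 reads. Alternatives used DESeq2 1.42.0, limma on log ratios, other minimums, thresholds and scalings, and each library left out. The scripts were tested on simulated data.

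Named members are, at each age, the 10 with the largest fall among those that passed, did not overlap and had a mean of at least 50 counts, the 5 with the largest rise, the 5 nearest the threshold on each side, up to 3 that passed per gene list, those whose effect changed with age, genes with 3 or more members, and Rbfox2 and Rbfox1. The other members of the 30 lower at all ages were added after their values were seen. So were those singled out for an opposite event, for their age change or for missing the test. The members and the 10 gene lists were chosen with earlier results of these data known. Libraries of a group differed by more than counting error, so none was counted as a repeat of another. No sequences are given, since the files hold no exon coordinates. The results of 1 gene are counted in the totals and are not reported here.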

Additional observations from a re-analysis of the deposited data

Results flagged for a closer look

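In 2 members the KO effect differed between weeks 18 and 5 by edgeR's test of the difference itself, with adjustment over all 2032 events. For Smek2 7203 the KO minus WT log2 ratio was 5.07 higher at week 18 than at week 5. For 1700012B15Rik 8621 the change was -3.57, a deeper fall at week 18. Only 1 member passed when any 1 of the 3 WT week 18 libraries was left out, so at least 1 of these 2 results was then lost. The groups of 3 libraries were too small for a test of single outlying libraries.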

How the results depend on the processing

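Of 84 named results past the threshold, 62 kept direction and side under every alternative run, and no result reversed. These are the KO against WT results of the 47 events named by rule and the 3'-end levels of named genes. Changes with age and the members added after their values were seen are not among them. Adding a change of at least 10 points left 15, 19 and 25 falls and 0, 0 and 1 rises at weeks 5, 9 and 18, and 14 members lower at all 3 ages. A WT share over 80% gave 55 falls at week 5 and 54 rises at week 18, and over 95% gave 22 rises at week 18, where the number of members differs by construction. Fitting only the libraries of the age gave 8 rises at week 5, and TMM factors per isoform column gave 22 rises at week 18. The cause of the last 2 was not tested. Leaving out each library in turn gave 28 to 36 falls and 8 to 15 rises at week 5, 39 to 59 and 12 to 32 at week 9, 39 to 54 and 24 to 37 at week 18, and 26 to 30 members lower at all ages. The same omissions gave 1 to 11 members whose effect changed with age, 4 to 23 changed with age in KO and 1 to 17 member genes changed in 3'-end RNA. limma on log ratios left 1 member whose effect changed with age. Counting recovered 3'-end reads with edgeR called 8 member genes. Library numbers did not pair WT and KO libraries (correlations of deviations -0.0531 to 0.137). With the replicate number as a block, the falls numbered 33, 56 and 48, the rises 12, 28 and 35, and the 3'-end count was 17. Under the block, adjusted p was 0.0558 for Smarca2 8330 at week 5 and 0.0593 for Ppfibp1 7820 at week 18. Low counts limit events such as Mtap2, Ppfibp1, Uap1 and Sfrs14, and errors cover only the spread between 3 libraries a group.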
